A study of Oryza sativa with 2 samples.

Results

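The genes described are those of a pair of fructose bisphosphatases (FBPases), LOC4325071 and LOC4332364, of Rubisco activase, rca (LOC4351224), and of ribulose phosphate epimerase, RPE (LOC4331761), in rice (Oryza sativa). They were taken as the genes with these locus symbols, or with rca or RPE as a symbol or synonym, that had a feature annotated with 1 gene. All 4 were found, with 1 feature each, out of 15798 genes on 17839 such features. RNA of 7-day-old seedlings exposed to 5 µM jasmonic acid (JA), a hormone that plants make on wounding, was set against RNA of unexposed seedlings of that age grown in MS medium. The sample titles speak of shoots and the design text of whole seedlings, and one label has the exposure, not the age, as 7 days. The 2 arrays held the same RNA pair with exchanged dyes: JA RNA carried Cy5 and control RNA Cy3 on array 1, and JA RNA carried Cy3 and control RNA Cy5 on array 2. Both carry the number of 1 replicate, so there is no spread between plants, no p-value, and every value describes these arrays only.

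The Calvin cycle fixes carbon dioxide in the chloroplast by means of Rubisco and then rebuilds the sugar phosphate that Rubisco uses. Rubisco activase is the chaperone-like ATPase that frees Rubisco of inhibitory sugar phosphates, and RPE interconverts pentose phosphates in the rebuilding steps and in the pentose phosphate pathway. FBPases remove a phosphate from fructose bisphosphate: a chloroplast form serves the Calvin cycle and starch, and a cytosolic form serves sucrose synthesis. The annotation gives LOC4325071 the synonyms CFBP1, FBP1, FBPase and MOC2. MOC2 is known in rice as the gene of a cytosolic FBPase, needed for tiller growth, so the name Calvin cycle does not hold for this gene. LOC4332364 carries only the synonym FBPase beside clone and locus numbers, and the tables used here do not give its compartment.

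Each array gave 1 ratio of its channels per spot, deposited as log10 and given here as log2, with medians of −0.30 on array 1 and −0.32 on array 2. No source states which dye or RNA is the numerator. The swap mean is 0.5 times the difference of array 1 minus array 2, in which a dye effect of a probe cancels if the numerator is the same dye on both arrays. With Cy5 as numerator, a negative swap mean means lower in JA seedlings than in control seedlings; with Cy3 it means higher. If both columns are instead JA over control, the plain mean of the arrays holds the treatment and the swap mean holds dye effects, so plain means are given too. Over all genes swap means had a median of 0.01 and plain means one of −0.26, with scaled median absolute deviations of 0.17 for swap means and 0.27 for plain means. Across features or genes, which are not replicates, Pearson's r between arrays was 0.54 over all features, control-like spots included. It was 0.24 over all genes and −0.77 over the 1000 brightest features without control-like spots. Brightness is the log2 geometric mean of the terms of the reduced whole-number fraction behind each ratio. It is a lower bound on signal, since common factors cancel, and was 4.83 on array 1 and 5.99 on array 2 for the median feature. Gene names rest on a turned spot grid that no source states. With it 0 of 228 control-like spots, which had low ratios on both arrays, fell on an annotated feature, against 194 by spot number.

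Rubisco activase, LOC4325071 and RPE each had a ratio below 1 on array 1 and above 1 on array 2, whereas the other FBPase, LOC4332364, had ratios below 1 on both. The swap means were −0.68 for LOC4325071, −0.52 for rca, −0.45 for RPE and 0.29 for LOC4332364; each changes sign with the other dye as numerator. None of the 4 genes was at least 2-fold apart from 1 in opposite directions on the arrays. Of all genes, 0.165% passed this with the lower ratio on array 1, called the array 2 side, and 0.5% with the lower ratio on array 2, called the array 1 side. A ratio of 1/2 or less on both arrays was met by 1 of the 4, LOC4332364, and by 3.85% of all genes. No gene on the arrays, or 0%, had a ratio of 2 or more on both.

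**Figure D1:**
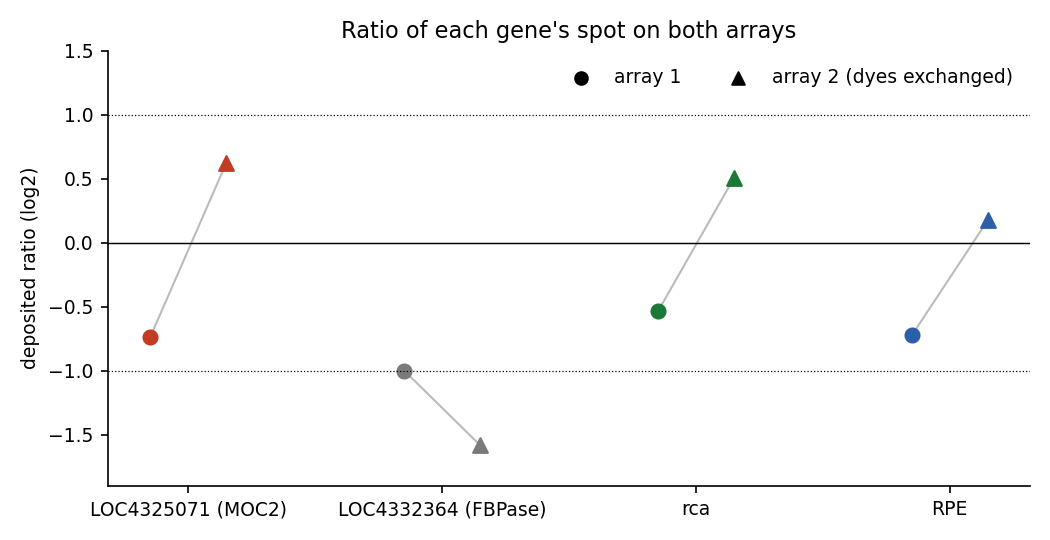
Deposited ratio (log2) of the single spot of each gene on array 1 (circles) and on array 2 with exchanged dyes (triangles); dotted lines mark 2-fold. LOC4325071, rca and RPE lie below 0 on array 1 and above 0 on array 2, and LOC4332364 lies at −1 and −1.58.

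LOC4325071, the FBPase also named MOC2, gave −0.74 (log2) with array 1 and 0.63 with array 2. As deposited these are 0.6-fold and 1.54-fold, and the plain mean was −0.06. With each array's median taken off they were −0.44 and 0.94. The size of the swap mean is 1.60-fold, and at a threshold of 1.5-fold this was the 1 gene of the 4 on the array 2 side, where 0.519% of all genes stood. In the order of swap means 131 genes lay below it, or 0.829%. The precision behind its arrays is unequal. On array 2 the ratio was 1430 over 927, a brightness of 10.2, but on array 1 it was 3 over 5, a brightness of 1.95. Of the 479 features within 0.5 of its brightness on array 2, only 2, itself included, were as low on array 1, where their median was 8.62. Whether the spot was dim on array 1 or its terms shared a large factor cannot be told from the reduced fraction. Its mean brightness therefore does not describe the spot, and the 200 features nearest to it on array 2 were used instead: their swap means had a scaled median absolute deviation of 0.30, their plain means one of 0.16, and 7 had a lower swap mean.

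**Figure D2:**
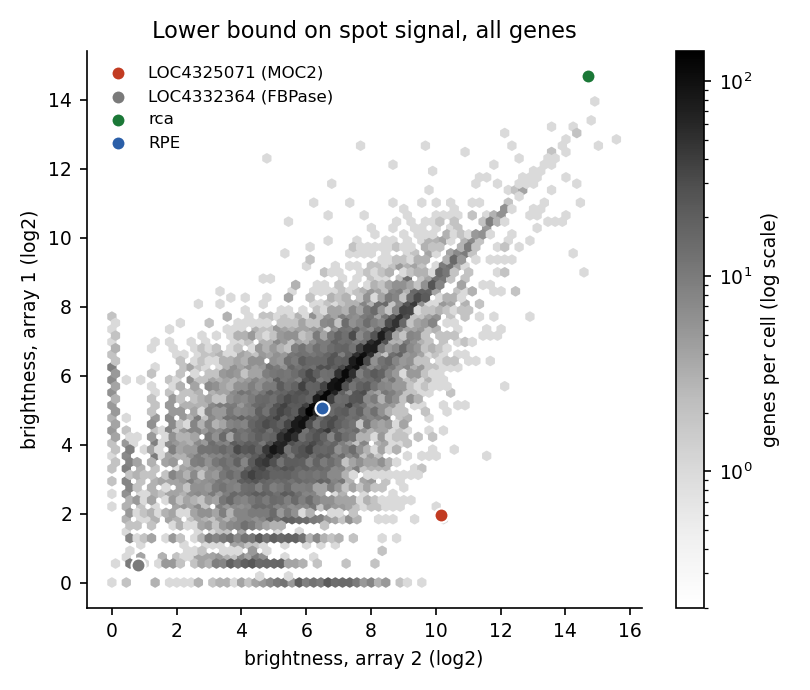
Brightness (log2) of all genes on array 2 (x axis) and array 1 (y axis), as the mean over a gene's features, with shading for genes per cell. Rubisco activase stands at the top right, LOC4332364 at the bottom left, RPE in the dense band, and LOC4325071 below that band with 10.2 on array 2 and 1.95 on array 1.

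LOC4332364, the other FBPase, gave −1 (log2) with array 1 and −1.58 with array 2. The fractions were 1 over 2 and 1 over 3, so both ratios could stand on the smallest whole numbers, and the plain mean was −1.29. The spot was among the dimmest, with a brightness of 0.65; 99.9% of genes were brighter. Such ratios were common there: 108 of the 200 features nearest in brightness had 1/2 or less on both arrays, and all 609 genes with such ratios lay below the median brightness of genes, where they made up 7.71%; above it the share was 0%. Among those 200 the scaled median absolute deviation was 0.24 for the swap mean and 0.53 for the plain mean. The swap mean of LOC4332364, 0.29, was above the first and below the second, and 57 of the 200 had one of larger size.

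Rubisco activase had the brightest spot of all 15798 genes, with a brightness of 14.7 on each array. Its log2 ratio was −0.54 on array 1, as 21877 over 31761, and 0.51 on array 2, as 31742 over 22353. As deposited the larger terms of the arrays nearly matched, as did the smaller ones, with their places exchanged. With each array's median taken off the log2 ratios were −0.24 and 0.82. The plain mean was −0.02, and the size of the swap mean was 1.44-fold. Over all genes 272 had a lower swap mean, or 1.72%. Among bright spots swap means varied more than over all genes, and plain means less. The 200 features nearest in brightness reached down to 10.6 and had a median swap mean of −0.07. Their scaled median absolute deviation was 0.37 for the swap mean and 0.18 for the plain mean, where all genes had 0.17 and 0.27. Of these 200 features, 10 had a lower swap mean than rca and 35 had one of larger size. Rice makes a large and a small activase by alternative splicing, and the tables used here do not say which of them the probe reads.

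RPE gave −0.73 (log2) on array 1, as 26 over 43, and 0.18 on array 2, as 96 over 85. As deposited these are 0.605-fold and 1.13-fold. With each array's median taken off they were −0.43 and 0.49, closer in size to each other than those of LOC4325071 or rca. The plain mean of −0.28 was near that of all genes, −0.26, and the size of the swap mean was 1.37-fold. The spot had a brightness of 5.78, a little above the 5.47 of the median gene. Over all genes 412 had a lower swap mean, or 2.61%. Of the 200 features nearest in brightness 5 had a lower swap mean and 18 had one of larger size. The scaled median absolute deviation of these 200 was 0.17 for the swap mean and 0.17 for the plain mean.

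**Figure D3:**
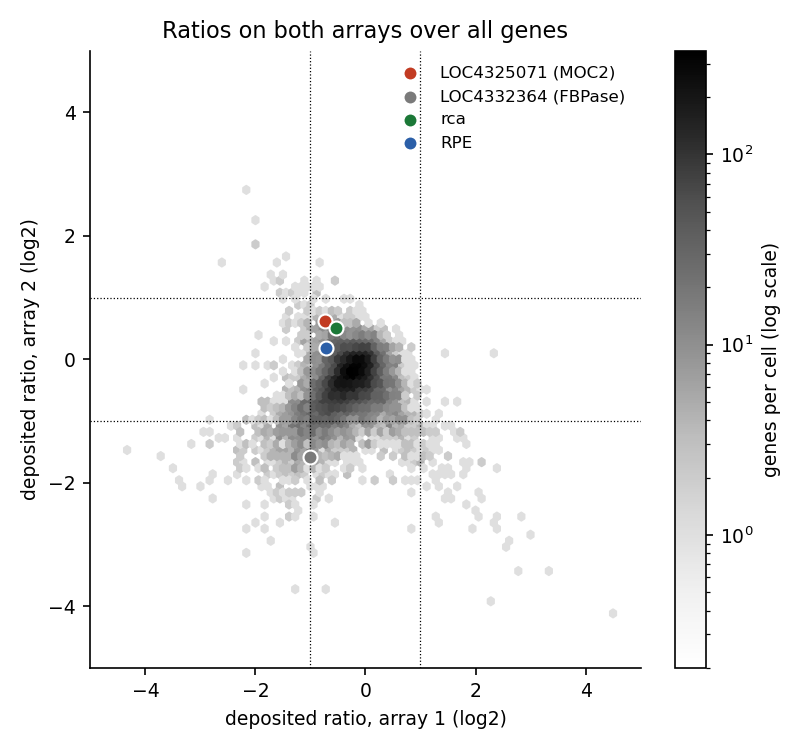
Deposited ratios (log2) of all genes on array 1 (x axis) and array 2 (y axis), with shading for genes per cell and dotted lines at 2-fold. LOC4325071, rca and RPE lie at the upper left edge of the main cloud, inside the 2-fold lines, and LOC4332364 lies in its lower left arm.

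From low to high swap mean the order was LOC4325071, rca, RPE and LOC4332364. LOC4325071 and rca were 0.16 apart and rca and RPE 0.07 apart. LOC4325071 and RPE were 0.23 apart. The spreads of the plain mean over other features, given above, were 0.16 for LOC4325071, 0.18 for rca and 0.17 for RPE. They are not errors of a gene's swap mean, so the gaps are set beside them only as a description. Neither the gap of LOC4325071 and rca nor that of rca and RPE was beyond these spreads. The gap of LOC4325071 and RPE was above them and below the 0.30 of the swap mean for LOC4325071. RPE and LOC4332364 were 0.74 apart, above the spreads given for RPE and for LOC4332364, which had one of the dimmest spots. The 24 spots within 2 places of each on the array had median swap means of −0.09 around LOC4325071, 0.10 around rca, −0.05 around RPE and 0.09 around LOC4332364.

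The other genes of the Calvin cycle list, found by symbol, did not share one direction. The list held 11 genes in the table, of which 8 were measured, the 4 genes described here included, and they had a median swap mean of −0.23; 5 lay below the median of all genes, 0.01. Without LOC4325071, for which the list's name does not hold, 4 of 7 lay below it, and the median was −0.13. Without the 4, 2 of 4 lay below it, and their median was −0.01. The plastid-type aldolase ALDP (LOC4349897), whose product FBPase acts on, had a swap mean of −0.34, from −0.15 with array 1 and 0.53 with array 2, on a spot with a brightness of 12.0. The aldolases FBA2 and FBA3, which carry the synonyms AldC-alpha and AldC-1, had swap means of −0.13 and 0.10, and the triosephosphate isomerase TPI had 0.14. The tables used here do not give the compartment of FBA2, FBA3 or TPI, so these may not be Calvin cycle forms. The mixed direction is therefore that of the list, not of the cycle. None of these 4 was 2-fold on either array. The Rubisco small subunit genes of the list were not analysed here.

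**Figure D4:**
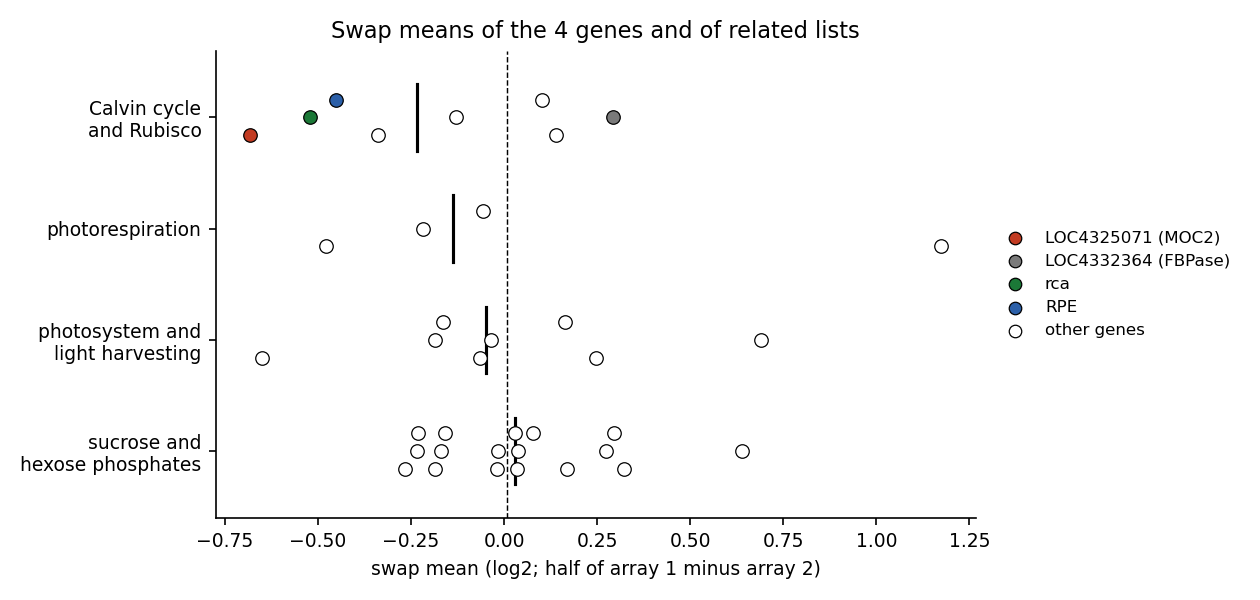
Swap means (log2) of the 4 genes (filled) and of other genes of related lists (open), 1 row a list; thick bars are list medians and the dashed line is the median of all genes, 0.01. The Calvin cycle row, which includes LOC4325071 by its symbol, runs from −0.68 to 0.29 and the photorespiration row from −0.48 to 1.17.

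Photorespiration, which recycles the product of Rubisco's reaction with oxygen, had 4 measured genes, with −0.14 as the median of their swap means, all of the glycolate oxidase family. GLO5 had −0.48 over 2 probes, at −0.63 on the brighter and −0.33 on the dimmer, GLO3 had −0.22, GLO1 −0.06 and GLO4 1.17. Within this family the swap means had both signs, and GLO4 was at least 2-fold on each array. Photosystem and light-harvesting proteins, which supply the cycle with ATP and NADPH, had a median of −0.05 over 8 genes, 5 of them below the median of all genes. The lowest was petC, the Rieske protein of the cytochrome complex between the photosystems, with −0.63 on array 1 and 0.67 on array 2, followed by PSBW at −0.19. The highest were the light-harvesting proteins CAB2R at 0.69 and LHCP (LOC4333359) at 0.25. Both had ratios above 1 on each array: CAB2R had 1.47 on array 1 and 0.09 on array 2, a plain mean of 0.78, and LHCP had 0.64 and 0.15, a plain mean of 0.39. With array 2 alone turned, their sign is the opposite of the swap mean's.

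The list of sucrose and hexose phosphate enzymes, the pathway of a cytosolic FBPase, held 17 measured genes with 0.03 as the median of their swap means, and 8 lay below the median of all genes. None was on either side, and 1, SPP1 (LOC4325448), had ratios of 1/2 or less on both arrays; it is named after its values were seen. Sucrose synthase SUS4 had −0.27, SPP2 (LOC4328274) −0.23, the sucrose phosphate synthase SPS3F 0.30, and SPS2 (LOC9267741) 0.64. Symbols alone set this list, and SPS and SPP also name enzymes of other pathways, so some members may belong elsewhere. In the oxidative pentose phosphate list 6PGDH2 had −0.03 and PGL1 0.01. PGL1 also carries the synonym ILI6, of a helix-loop-helix family, and may not belong to the pathway.

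Genes most like each of the 4 were sought among named genes within 1 log2 unit of its brightness, by distance in log2 ratio over the 2 arrays. For LOC4325071 the choice among 836 genes used its mean brightness, which does not describe its spot. The nearest were HAP3F at 0.05, a subunit of the NF-Y transcription factor, and INO1 at 0.06, an inositol phosphate synthase. RPA70B, of the protein that binds single-stranded DNA, came next at 0.13. For RPE they were ZHD1 at 0.06, a zinc finger homeodomain factor, TIM13 at 0.15, of mitochondrial import, and NYC1 at 0.15, a chlorophyll b reductase, out of 827. For rca only 3 named genes were that bright, PETE (plastocyanin) at 0.67, LHCP at 1.23 and CAB2R at 2.05, so the nearest lay far off. For LOC4332364 the 14 such genes gave MADS15 at 0.26, CAD7 at 0.32 and FTSH6 at 0.58, each on a spot with a brightness of at most 1.23.

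Ratios hold no level, so the labelled tissue cannot be checked by its markers; brightness, a lower bound that is not comparable between probes, is given as a description. The measured shoot markers rca, petC, CAB1R and CAB2R had brightness from 12.0 to 14.7, and the root markers Lsi1, NRAMP5 and Lsi2 had 8.98, 6.21 and 2.74. The swap means of these root markers ran from −0.02 to 0.12. The swap means of the shoot markers were −0.65 for petC, −0.52 for rca, −0.03 for CAB1R and 0.69 for CAB2R, so they did not share 1 sign. PORA, abundant in etiolated leaves, had a swap mean of 1.05, and its part in the values of the 4 genes was not tested. A share of green tissue and RNA per cell cannot be told apart in such samples.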

How the data were processed

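The authors deposited 1 log10 ratio of the channels per spot for each of 2 dual-colour arrays with 22575 features. Per the labels' design text, a GenePix scanner and its program read the arrays and GeneSpring version 4 normalized them. The deposited ratios had log2 medians of −0.30 on array 1 and −0.32 on array 2, and some were simple fractions, such as 3 over 5 for LOC4325071 on array 1. They may therefore be values from before that normalization, which was not tested. For background correction and filtering, the method is not given in the labels or the file. Values were multiplied to log2 and not centred. The simplest fraction within 6e-10 (log10) of each value gave numerator, denominator and brightness. Control-like spots were those with a brightness over 4.5 and log2 ratios under −2.2 on each array. Features were paired with the annotation by a grid of 215 lines of 105 spots, turned in both axes, and named through the RefSeq table of assembly ASM3414082v1. A gene took the mean of its probes on each array. The lists were matched by symbol, since the tables hold no gene descriptions. Names such as those that begin with SPPL or PGIP, and the exact name PSA, were left out as other proteins. The 4 genes, the lists and the rules (all 4 genes, all Calvin cycle genes, the 2 lowest and 2 highest of other lists among genes of at least median brightness, and the 3 nearest named genes) were chosen with earlier results of these data known. The 2 arrays are 1 replicate, so no test was made, and their number limits the precision. Scripts ran in Python 3.11.15 with numpy 2.4.6 and pandas 2.3.3 and were tested on simulated data.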

Additional observations from a re-analysis of the deposited data

How the results depend on the processing

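Of 51 recomputed values, 35 stayed within a spread chosen for comparison or 1.5 times of the count, 13 moved beyond it and 3 changed sign. The cause was not tested. With 1 replicate no error of a single gene's value was measured, so that spread serves as a description only. Centring on each array's median, on a running median against brightness, or without control-like spots left the 4 swap means within that spread, but the count of 1 gene with ratios of 1/2 or less on both arrays became 0 under each of them, at 3-fold, and with names by spot number. The swap mean of LOC4332364 was −1 with array 1 alone, a change of sign, and 1.58 with array 2 alone. That of RPE was −0.73 with array 1 alone and −0.18 with array 2 alone, on ratios that are not centred. LOC4325071 and rca kept their sign with each array, within that spread. The count on the array 2 side, 0, was 1 with array 1 alone and 1 at 1.5-fold. With names by spot number LOC4325071 had −0.16, rca 0.15 and RPE 0.0888. In the Calvin cycle list 3 genes, not 5, then lay below the median of all genes. Without the 4 genes 2 did, and without LOC4325071 4 did; both settings were chosen after seeing the data. No paired analysis was possible because here there is only 1 replicate. Dim spots, LOC4332364 above all, limit what can be measured.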

Other observations

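Each of the 4 genes has 1 probe, so none can be set against a second probe of its own. Other genes with 2 probes of at least median brightness give a measure of how far a single probe of this size is repeated, computed after the values had been seen. Counted by gene, 4 genes had a probe with a swap mean at or below that of LOC4325071, and in 3 of them the other probe lay below the median of all features. At or below that of rca it was 8 of 11 genes, and at or below that of RPE 14 of 19. The counts by gene ask this of at least 1 probe of a gene. Counted by probe it was 4 of 5 for LOC4325071, 10 of 13 for rca and 17 of 22 for RPE. Over all such probes 52.3% had a second probe below the median, also counted by probe. The counts by gene have no such share over all genes beside them here. Both probes were as low in 1 of the 4, 2 of the 11 and 3 of the 19 genes. These groups overlap, since each holds the one before.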
